A study of Homo sapiens with 31 samples.

Results

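The genes described here are 49 human genes that act when a cell leaves G1 and copies its DNA, taken as a list of gene symbols: 6 regulators of the G1/S step, 11 genes of origin licensing, 6 of helicase activation, 7 polymerase and RPA genes, 7 of the clamp, its loader and flap processing, 4 of deoxynucleotide supply, 4 of chromatin and histone supply, and 4 of fork protection, protein turnover and repair. The authors' table holds 74834 rows, and 48 of the 49 genes have a row of their own in it. The exception is UHRF1, whose row is shared with the microRNA MIR4747 and was not counted among the 48. All 48 passed the filter on low values, a mean of at least 10 normalized reads over the libraries, as did 16259 rows in all.

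Poly(A) RNA was sequenced from H460 cells, an established line of human non-small cell lung cancer, after 6 h of treatment. The 8 groups were B87+DMKG+Rita, B87+DMKG+Nutlin-3, B87+DMKG, Rita, Nutlin-3, DMKG, B87 and Control, with 4 libraries each except Nutlin-3 with 3. B87 is BAY87-2243 at 1 µM, which inhibits complex I of the respiratory chain; DMKG is dimethyl α-ketoglutarate at 5 mM, an ester of α-ketoglutarate that enters cells. Nutlin-3, given at 30 µM, is a small molecule that binds the ubiquitin ligase MDM2, and Rita, another small molecule, was given at 50 µM. The triple treatments joined these agents at the same doses, Control cells were untreated, and no group is labelled as given a solvent alone. Each library pooled 2 wells of 1 cell line; the labels do not say that replicates came from separate cultures, so p-values measure the spread between these libraries, which may be technical.

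Entry into S phase depends on cyclin E with CDK2 and on the E2F factors, which are freed from the retinoblastoma protein and switch on most of the genes listed. The origin recognition complex, CDC6 and CDT1 load the MCM helicase in G1, CDC45 and the GINS complex turn it into a moving helicase, and the polymerases follow, tethered by the PCNA ring that the RFC complex opens and closes. CDKN1A encodes the kinase inhibitor p21, which keeps the retinoblastoma protein bound to E2F, and MDM2 encodes the ligase that Nutlin-3 binds.

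The libraries held 33.4 M to 82.5 M whole reads, with a median of 63.1 M, and values are the authors' normalized read counts, which are relative levels. Over all libraries the members averaged between 434.3 normalized reads for E2F2 and 33726.5 for MCM7, so all 48 lay far above the filter of 10. Per kilobase of exon in Control, PCNA stood highest with 15947.6 normalized reads and E2F2 lowest with 81.9. The keratins KRT8, KRT18 and KRT19 were high in every library, at 44500.8 or more, whereas EPCAM lay between 28.0 and 85.0 and the leukocyte and endothelial markers PTPRC, CD3E, PECAM1 and CDH5 were at 7.8 or less. Of the other markers read, LYZ reached 14.3, VWF 10.1, KDR 61.5 and DCN 24.9, CD14 lay between 47.0 and 272.8, COL1A1 between 384.8 and 947.5 and LUM between 97.3 and 261.5. The 4 endothelial markers summed to between 32.0 and 66.0 in the B87+DMKG libraries, against 21.4 or less in every other group; the part of these markers in the results was not tested. The median SD of the members on the log2 scale was 0.040 in B87+DMKG+Rita, 0.140 in DMKG, 0.134 in both B87+DMKG and Nutlin-3, and 0.065 in Control. Changes below are log2 fold changes of normalized value plus 1, given with their standard error, where 1 is a doubling; a gene is called, and said to rise or fall, at a Benjamini-Hochberg adjusted p under 0.05 in limma over all 16259 rows. Of the members, 10 overlap another tested row, among them CCNE2 with INTS8, DTL with INTS7, CHAF1A with POLRMT, MCM7 with AP4M1, and TYMS with ENOSF1 and TYMSOS. The highest overlapping row had 117% of the member's mean for CCNE2, 101% for CHAF1A and 87.9% for DTL. That share was 15% for TYMS and 1.95% for MCM7. FEN1 overlaps a row of CPSF7 and FTH1 with a mean of 382334.4, against 10250.7 for FEN1. LIG1 overlaps FTL, with a mean of 684187.2 against 5850.6 for LIG1. Whether counting used the strand is not given in the sources used here, so reads of such neighbours cannot be told apart from theirs.

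The start-site windows of 6 members are shown because, of the members whose bases before the start carry the letters of the classical E2F motif, they changed most against Control. TTTCCCGC, TTTGGCGC, TTTCGCGC and TTTGCCGC were searched on both strands in RefSeq promoter windows of GRCh38.p14, from 250 bases before to 50 after each start; windows were found for 40 of the 48 members. A match was present in 22 of the 40, or 55%, against 3.33% of all 27305 windows and 5.17% of the 10240 windows of tested genes. The 100 bases printed run 5′ to 3′ on the gene's strand, with the matching letters in capitals. They lie at chr16:88803689-88803788 (plus strand) for CDT1, chr13:33818047-33818146 (plus) for RFC3, chr1:212035648-212035747 (plus) for DTL, chr1:23531234-23531333 (minus) for E2F2, chr20:33686386-33686485 (minus) for E2F1 and chr2:135876477-135876576 (minus) for MCM6.
CDT1: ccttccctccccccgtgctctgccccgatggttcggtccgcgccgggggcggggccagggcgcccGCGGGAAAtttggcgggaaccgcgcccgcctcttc
RFC3: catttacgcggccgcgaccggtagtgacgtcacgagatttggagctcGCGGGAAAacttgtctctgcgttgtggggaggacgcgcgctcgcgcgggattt
DTL: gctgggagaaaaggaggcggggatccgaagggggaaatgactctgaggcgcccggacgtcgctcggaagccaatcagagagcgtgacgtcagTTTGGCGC
E2F2: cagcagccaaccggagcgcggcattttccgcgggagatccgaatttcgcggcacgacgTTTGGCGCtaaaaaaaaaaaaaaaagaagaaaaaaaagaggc
E2F1: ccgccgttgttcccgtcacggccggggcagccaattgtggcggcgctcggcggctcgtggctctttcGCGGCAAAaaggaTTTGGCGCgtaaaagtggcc
MCM6: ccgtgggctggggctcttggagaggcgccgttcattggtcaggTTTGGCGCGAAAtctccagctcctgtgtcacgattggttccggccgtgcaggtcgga
The E2F1 bases hold 2 matches, the MCM6 bases hold 2 that overlap by 4 letters, and the other 4 stretches hold 1 each. A match of letters is a description of the sequence and not evidence of a bound site. Under Nutlin-3 the median change was -0.53 for the 22 members with a match and -0.51 for the 18 without. Some comparisons differed more, and in both directions. The medians with and without a match were 0.41 and 0.72 in Rita against Nutlin-3. They were 0.18 and -0.05 in B87+DMKG against DMKG. These differences were not tested.

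CDKN1A and MDM2 were read in the same libraries. CDKN1A had 33118, 32238, 33086 and 34338 normalized reads in B87+DMKG+Rita, 46192, 44086, 51535 and 43372 in B87+DMKG+Nutlin-3, 27938, 30317, 30468 and 28088 in Rita and 91711, 80660.2 and 80394 in Nutlin-3, against 4173, 4669, 4472 and 4342 in Control. All libraries with either compound lay far above all Control libraries, and the change against Control was 4.25 in Nutlin-3, 2.73 in Rita, 0.59 in DMKG and 0.31 in B87+DMKG. MDM2 changed by 3.47 in Nutlin-3, by 0.76 in Rita and by -0.68 in B87+DMKG, where it was lower than in Control, so that a step over B87+DMKG starts from a lower level. B87 alone moved neither gene past the threshold (CDKN1A 0.20, MDM2 0.17).

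B87 alone called no member against Control (0 of 48 in limma), with 0.0431% of all rows called, 0.0308% higher and 0.0123% lower. Without adjustment 3 members had a p under 0.05, and edgeR and DESeq2 on whole reads also called 0. The members' changes ran from -0.29 for RFC4 to 0.24 for CCNE2, with a median of 0.01.

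**Figure D1:**
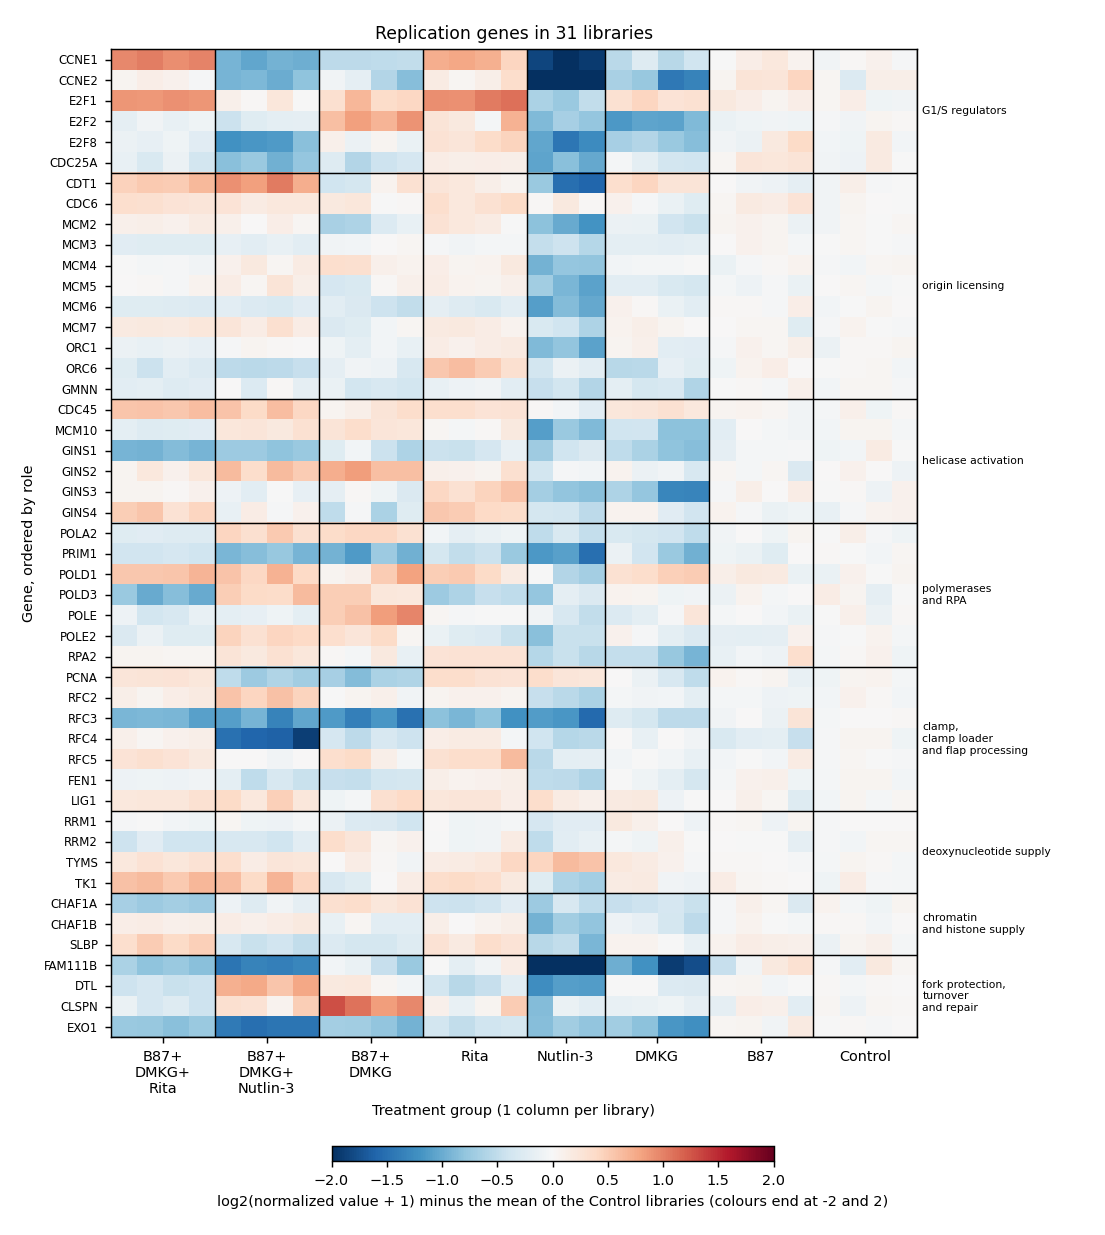
Each row is 1 of the 48 genes, ordered by role, and each column 1 of the 31 libraries; colour gives log2(normalized value + 1) minus the mean of the 4 Control libraries, with colours ending at -2 and 2. Nutlin-3 columns are blue for nearly all genes, whereas B87 columns look like Control and the B87+DMKG+Nutlin-3 columns are split between red and blue.

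Nutlin-3 lowered most of the members within 6 h. Of 48 members 41 fell and 2 rose against Control, with 39.1% of all rows called (18.5% higher and 20.7% lower). The median change was -0.53 for the members and -0.01 for all rows, and in each Nutlin-3 library 43 or 44 of the 48 members lay below the Control mean. In bulk RNA, fewer cells in S phase and less RNA per cell cannot be told apart. After each library was scaled to 1 shared total, which shifts the median of all rows to -0.14, the split was 44 lower and 1 higher.

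All 6 G1/S regulators fell, and the pair of E-type cyclins fell most among them. CCNE1, at chr19:30302901-30315224 of hg19, had 184, 151 and 173 normalized reads in Nutlin-3 libraries, against 622, 663, 695 and 644 in Control, a change of -1.95 ± 0.09, adjusted p = 1.9e-16. CCNE2 had 135, 190.0 and 209 in Nutlin-3, against 936, 752, 988 and 992 in Control, a change of -2.37 ± 0.17, adjusted p = 4.9e-12. For both cyclins every Nutlin-3 library lay far below the lowest Control library. E2F8, a repressor in the E2F family, fell by 1.25, CDC25A, the phosphatase that activates CDK2, by 0.97, and the activators E2F2 and E2F1 by 0.78 and 0.62.

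Origin licensing genes fell in 9 of 11 cases. CDT1, the factor that brings MCM to origins, had 2254, 1328 and 1256 in Nutlin-3, against 3604, 4107, 3713 and 3761 in Control, with a change of -1.29 ± 0.14, adjusted p = 2.4e-08. Replicate 1 of Nutlin-3 stood above the other two, yet below all Control libraries. The 6 subunits of the MCM ring all fell, from -0.44 for MCM7 to -1.01 for MCM2, as did ORC1 (-0.91) and the CDT1 inhibitor GMNN (-0.47). CDC6, the other MCM loader, did not follow: it had 5244, 5929 and 5242 in Nutlin-3, against 4945, 5389, 5208 and 5130.2 in Control, a change of 0.08 ± 0.07, adjusted p = 0.409. The groups overlapped for CDC6. ORC6, a subunit of the origin recognition complex, had 1185, 1408 and 1319 in Nutlin-3, against 1514, 1544, 1561 and 1469.8 in Control. Its groups did not overlap, and its change of -0.23 ± 0.09, adjusted p = 0.0514 missed the threshold narrowly; it was called lower by edgeR, DESeq2 and 4 other settings, among them scaling to 1 shared total (-0.355).

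Downstream of licensing, MCM10 (-0.91) and GINS3 (-0.77) led the helicase activation genes, of which 4 of 6 fell; CDC45 was at -0.09 and GINS2 at -0.15, neither called. All 7 polymerase and RPA genes fell, PRIM1, the primase subunit, most. It had 1716, 1789.6 and 1327 in Nutlin-3, against 3874, 3770.0, 3644 and 3893 in Control (-1.25 ± 0.13, adjusted p = 1.1e-08). POLE (-0.29) was not called in 5 of the 7 fits that left out 1 library (-0.195 without Nutlin-3 replicate 3, -0.277 without Nutlin-3 replicate 2, and -0.258 to -0.294 without Control replicate 1, 2 or 4). POLD1 (-0.43) was at -0.297 without Nutlin-3 replicate 3 (limma adjusted p = 0.149) and at -0.345 without Nutlin-3 replicate 2 (limma adjusted p = 0.097). POLD3 (-0.41) was at -0.23 without Nutlin-3 replicate 1, with an adjusted p of 0.0966.

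PCNA and TYMS were the 2 members that rose. PCNA, the sliding clamp, had 29912, 27679 and 27535 in Nutlin-3, against 22125, 24407, 24526 and 22778 in Control, and TYMS, thymidylate synthase, had 7870.5, 9100.2 and 8728 in Nutlin-3, against 5676, 6081, 5957 and 5724 in Control. Their changes were 0.27 ± 0.08, adjusted p = 0.01 for PCNA and 0.55 ± 0.07, adjusted p = 3.5e-07 for TYMS. No library of either gene overlapped the other group, but after scaling each library to 1 shared total PCNA was at 0.15 and no longer called, and by quantile normalization at 0.16. The clamp loader genes went the other way from the clamp: RFC3 (-1.28), RFC2 (-0.55), RFC4 (-0.51) and RFC5 (-0.30) fell, the last not called without Nutlin-3 replicate 1 (-0.18, adjusted p = 0.123 in limma). FEN1, the flap endonuclease, fell by 0.55 and LIG1, the ligase that seals the lagging strand, was at 0.20 and not called.

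The largest fall of all belonged to FAM111B, a protease gene. FAM111B had 328, 402 and 417 in Nutlin-3, against 2003, 1753, 2329.7 and 2099 in Control, a change of -2.42 ± 0.18, adjusted p = 6.4e-12. Every Nutlin-3 library lay far below the lowest Control library. DTL, which marks CDT1 for degradation at PCNA, fell by 1.15, EXO1, an exonuclease of mismatch repair, by 0.77, and CLSPN, which carries the checkpoint signal at forks, by 0.40 (-0.17 and not called without Nutlin-3 replicate 1, adjusted p = 0.328 in limma). RRM2, the small subunit of ribonucleotide reductase, had 18087, 22214 and 23319 in Nutlin-3, against 25218, 24665, 26539.9 and 26505 in Control, a change of -0.29 ± 0.08, adjusted p = 0.00613; without Nutlin-3 replicate 1 it was -0.18 and not called (0.0924). TK1, thymidine kinase, fell by 0.51, and the chromatin assembly genes CHAF1B and CHAF1A by 0.81 and 0.52. The row that UHRF1 shares with MIR4747 was at -1.20.

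**Figure D2:**
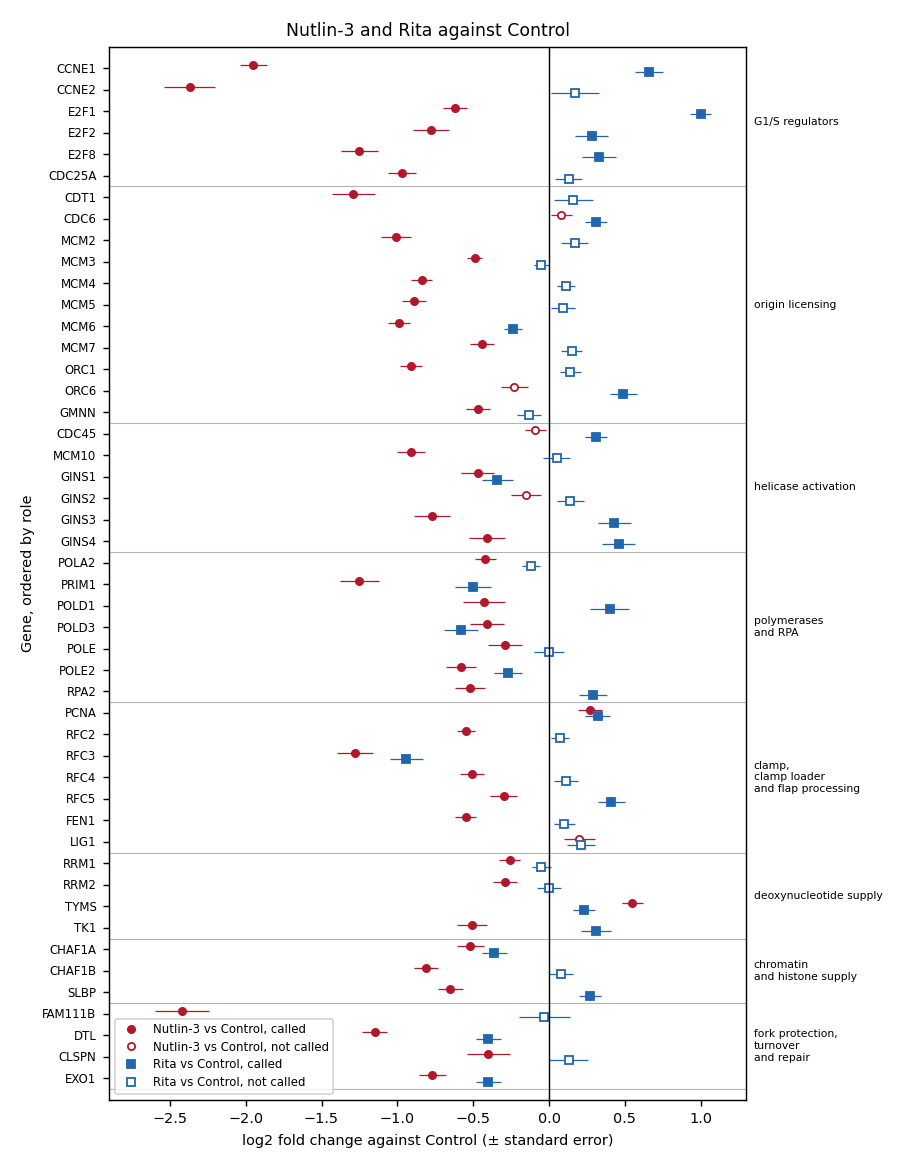
Points give the log2 fold change of each gene against Control in Nutlin-3 (circles, 3 libraries) and Rita (squares, 4 libraries), with bars for the standard error; filled points are called. Nutlin-3 points lie left of 0 except for CDC6, PCNA, LIG1 and TYMS, and Rita points scatter to both sides.

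Rita, at a dose that raised CDKN1A by 2.73, left most members near or above Control with the authors' normalization. Against Control 16 members rose and 9 fell, with 52.1% of all rows called (25.8% higher and 26.3% lower) and the same 52.1% of members, so the share of members called was that of the table. The median change was 0.13 for members and 0.03 for all rows. The split depends on scaling: after scaling to 1 shared total 6 rose and 14 fell, and the median of all rows moved to -0.15.

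E2F1 rose most. E2F1 had 3428, 3385, 3665 and 3853 in Rita, against 1835, 1964, 1678 and 1696 in Control, a change of 1.00 ± 0.07, adjusted p = 2.4e-12. CCNE1 had 1090.4, 1126, 1069 and 884 in Rita, against 622, 663, 695 and 644 in Control (0.66 ± 0.09, adjusted p = 1.3e-07), and ORC6 had 2203, 2346, 2164 and 1892 in Rita, against 1514, 1544, 1561 and 1469.8 in Control (0.49 ± 0.09, adjusted p = 1.5e-05). For these 3 genes all Rita libraries exceeded all Control libraries, and the calls held after scaling to 1 shared total. GINS4 (0.46), GINS3 (0.43), RFC5 (0.41) and POLD1 (0.40) followed; POLD1 was at 0.22 and not called after scaling to 1 shared total, under which E2F2, E2F8, CDC6, CDC45, PCNA, RPA2, TYMS, TK1 and SLBP also lost the call. CDT1 had 4478, 4393, 4121 and 3949 in Rita, against 3604, 4107, 3713 and 3761 in Control, a change of 0.16 that was not called, and the MCM genes lay between -0.24 for MCM6, the only one called, and 0.17 for MCM2.

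RFC3 fell most in Rita. RFC3 had 1749, 1641, 1772 and 1338 in Rita, against 3014, 3112, 3107 and 3146 in Control (-0.94 ± 0.11, adjusted p = 1.8e-08). POLD3, a subunit of polymerase delta, had 656, 712, 787 and 763 in Rita, against 1199.5, 1124, 961 and 1079 in Control (-0.58 ± 0.11, adjusted p = 3.3e-05), and PRIM1 had 2972, 2683, 2826 and 2269.7 in Rita, against 3874, 3770.0, 3644 and 3893 in Control (-0.50 ± 0.12, adjusted p = 0.00088). The groups did not overlap for these 3 genes. DTL and EXO1 each fell by 0.40 and CHAF1A by 0.36.

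The members that fell in Rita were mostly those with long genes. Of the 19 members that span 30 kb or more on hg19, 8 fell and 2 rose (median -0.05), whereas of the 29 shorter members 1 fell and 14 rose (median 0.17). Across the 48 members Spearman's rho between span and change was -0.54, or -0.51 without RFC3, whose span is the longest, and over 13020 single-gene rows it was -0.51; there the median change was -0.27 for the 6537 genes of 30 kb or more and 0.24 for the 6483 shorter ones. The points of such a correlation are genes measured in the same libraries, so it is a description only. Under Nutlin-3 the rho was -0.04 for the members and -0.01 for all genes, and 17 of the 19 long and 24 of the 29 shorter members fell. In B87+DMKG+Rita against Control the rho was -0.48 for the members and -0.43 for all genes. There 12 of the 19 long and 6 of the 29 shorter members fell. In B87+DMKG+Nutlin-3 against Control the rho was 0.13 for the members and -0.22 for all genes.

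**Figure D3:**
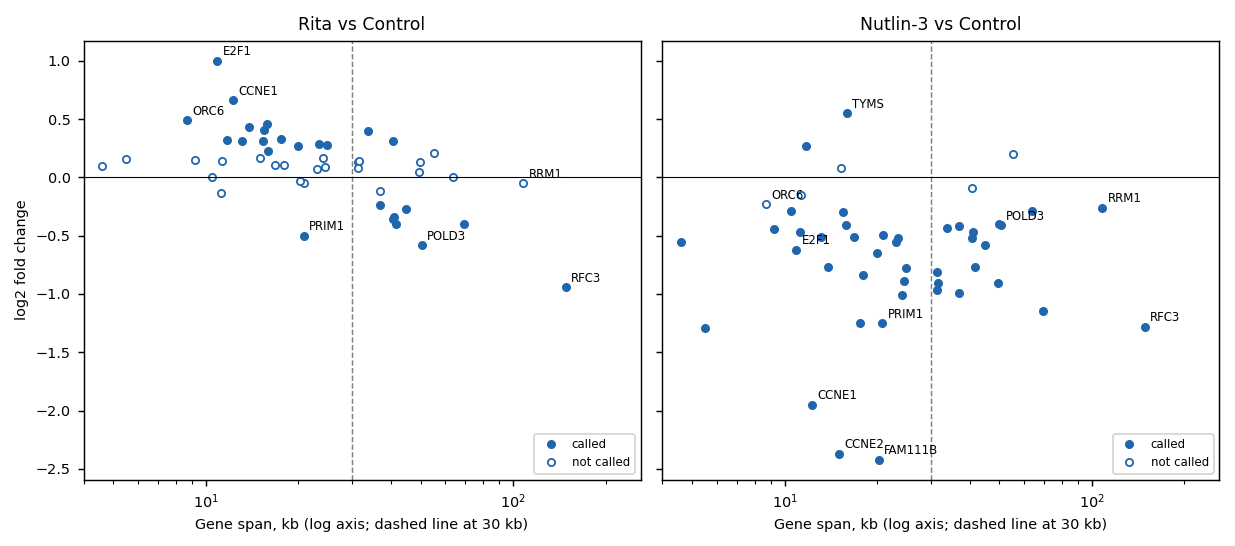
Each point is 1 of the 48 genes, with its span on hg19 on a log axis and its log2 fold change against Control in Rita (left) or Nutlin-3 (right). In Rita the genes that fell are mostly to the right of the dashed line at 30 kb; in Nutlin-3 falls occur at all spans.

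Set directly against Nutlin-3, Rita libraries held more of 42 members and less of 1, TYMS (-0.31), with 51.2% of all rows called (26.4% higher and 24.8% lower). The median difference was 0.72 for members and 0.03 for all rows. CCNE1 (2.62 ± 0.09, adjusted p = 1.4e-19), CCNE2 (2.54 ± 0.17, adjusted p = 3.2e-13) and FAM111B (2.39 ± 0.18, adjusted p = 2.5e-12) differed most. All 6 G1/S regulators and all 11 licensing genes were higher in Rita, CDC6 by 0.22 (0.20 and not called without Nutlin-3 replicate 3, limma adjusted p = 0.0608). PCNA was at 0.04 ± 0.08 and not called. CDKN1A and MDM2 were lower in Rita, at -1.53 and -2.70, so both genes differed between these treatments too; the compounds were given at different doses.

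DMKG alone lowered more members than it raised. Of 48 members 22 fell and 3 rose, with 41.4% of all rows called (19.6% higher and 21.8% lower), and the median was -0.14 for members and 0.03 for all rows. After scaling to 1 shared total, which shifts the median of all rows to -0.08, 28 fell and 1 rose. Of the calls over all rows, 31.7% were then higher, against 47.3% before. The 4 DMKG libraries were uneven: replicates 3 and 4 had 39 and 42 members below the Control mean, replicates 1 and 2 had 29 and 34. Without replicates 3 and 4 the counts were 15 lower and 2 higher, and without replicates 1 and 2 they were 25 and 3.

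FAM111B again fell most. FAM111B had 1033, 879.7, 548 and 595 in DMKG, against 2003, 1753, 2329.7 and 2099 in Control (-1.46 ± 0.17, adjusted p = 2e-08), CCNE2 had 580.4, 537, 336 and 359 in DMKG, against 936, 752, 988 and 992 in Control (-1.05 ± 0.16, adjusted p = 4e-06), and E2F2 had 202, 214, 212 and 242.6 in DMKG, against 439, 427, 466 and 456 in Control (-1.04 ± 0.11, adjusted p = 4.4e-09). Every DMKG library was below every Control library for all 3. Without DMKG replicates 3 and 4 FAM111B was at -1.09 and CCNE2 at -0.71, both still called, and E2F2 at -1.10. GINS3, at 0.50 times its Control level, EXO1 (-0.98), E2F8 (-0.71), GINS1 (-0.70), RPA2 (-0.66) and MCM10 (-0.61) also fell. CCNE1 had 449.6, 549.7, 448 and 495 in DMKG, against 622, 663, 695 and 644 in Control (-0.44 ± 0.09, adjusted p = 0.00012).

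The 3 members that rose in DMKG were POLD1 (0.41), E2F1 (0.33) and CDC45 (0.25). E2F1 had 2208, 2408, 2162 and 2215 in DMKG, against 1835, 1964, 1678 and 1696 in Control, with no overlap, and kept its call with and without each pair of DMKG libraries. POLD1 and CDC45 were at 0.30 and 0.13 after scaling to 1 shared total, neither called, and POLD1 was at 0.33 and not called without replicates 3 and 4 (adjusted p = 0.125 in limma). CDT1 had 4783, 5103, 4536 and 4516 in DMKG, against 3604, 4107, 3713 and 3761 in Control, with no overlap between the groups. Its change was 0.32 ± 0.13, adjusted p = 0.0508 in limma. It was called higher in 6 of the other settings, among them DESeq2 (0.319). It was not called without DMKG replicates 1 and 2 (0.26, adjusted p = 0.221 in limma) or without replicates 3 and 4 (0.38, adjusted p = 0.0766 in limma). PCNA had 23589, 21588, 18828 and 16469 in DMKG, against 22125, 24407, 24526 and 22778 in Control, a change of -0.23 ± 0.08, adjusted p = 0.0166 that was -0.05 and not called without replicates 3 and 4. CDKN1A and MDM2 rose by 0.59 and 0.27. CDKN1A had 5596, 5584, 8076 and 7652 in DMKG, against 4173, 4669, 4472 and 4342 in Control. MDM2 had 8560, 8033, 6726 and 8311 in DMKG, against 6691, 6062, 6538 and 6808 in Control. For MDM2, DMKG replicate 3 lay within the Control range. None of the 4 deoxynucleotide supply genes was called; they lay between -0.01 and 0.11.

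B87+DMKG changed members in both directions, 15 higher and 16 lower than Control. That is 64.6% of members, with 61.0% of all rows called (30.2% higher and 30.8% lower), so the share is close to that of the table. The median was -0.10 for members and 0.00 for all rows. The 4 B87+DMKG libraries were uneven: replicates 1 and 2 both lay below replicates 3 and 4 for 13 members and both above them for 17. Mitochondrial rows took 2.24% to 7.51% of their totals, against 1.49% to 2.15% in Control. They took 2.42% to 5.39% in Nutlin-3, 2.69% to 4.76% in Rita, 3.34% to 3.67% in B87+DMKG+Nutlin-3 and 2.47% to 3.33% in B87+DMKG+Rita. In DMKG they took 1.97% to 2.48% and in B87 1.33% to 1.66%. The part of mitochondrial rows in the results was not tested. In fits added after the data were seen, 10 were higher and 17 lower without replicates 1 and 2, and 14 and 17 without replicates 3 and 4.

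CLSPN rose most. CLSPN had 6147, 5346, 4500.5 and 4927 in B87+DMKG, against 2575, 2359, 2582 and 2571 in Control (1.04 ± 0.13, adjusted p = 5.4e-08), E2F2 had 680.2, 785, 716 and 832 in B87+DMKG, against 439, 427, 466 and 456 in Control (0.75 ± 0.11, adjusted p = 6.5e-07), and POLE, the catalytic subunit of polymerase epsilon, had 2033, 2169, 2578 and 2835 in B87+DMKG, against 1434, 1548, 1326 and 1459 in Control (0.73 ± 0.10, adjusted p = 4.8e-07). All B87+DMKG libraries exceeded all Control libraries for these genes, and the calls held without either pair of B87+DMKG libraries. GINS2 rose by 0.69 and E2F1 by 0.44. Among the polymerase and RPA genes 5 of 7 rose, although POLD3 (0.36) was not called without B87+DMKG replicates 1 and 2 (0.22), POLD1 (0.37) was at 0.08 without replicates 3 and 4 and not called, nor was it without B87+DMKG replicate 4 (0.223), B87+DMKG replicate 3 (0.321) or Control replicate 1 (0.322), and POLE2 (0.24) not without B87+DMKG replicate 3 (0.201), B87+DMKG replicate 1 (0.217), Control replicate 1 (0.236) or Control replicate 4 (0.233).

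RFC3 fell most in B87+DMKG. RFC3 had 1417, 1204, 1384 and 1098 in B87+DMKG, against 3014, 3112, 3107 and 3146 in Control (-1.29 ± 0.11, adjusted p = 2.3e-11), PRIM1 had 1966, 1723, 2285 and 1946 in B87+DMKG, against 3874, 3770.0, 3644 and 3893 in Control (-0.95 ± 0.12, adjusted p = 9.1e-08), and PCNA had 14822, 12825, 15138 and 15380.2 in B87+DMKG, against 22125, 24407, 24526 and 22778 in Control (-0.69 ± 0.08, adjusted p = 8e-09). The groups did not overlap for any of the 3, and the calls held without either pair of B87+DMKG libraries. EXO1 had 29008, 28677, 26859 and 24101 in B87+DMKG, against 45967, 47176, 45398 and 46577 in Control (-0.77 ± 0.08, adjusted p = 1.5e-09), and CCNE1 had 453, 457, 461 and 467 in B87+DMKG, against 622, 663, 695 and 644 in Control (-0.51 ± 0.09, adjusted p = 6.6e-06). CDT1 (-0.09) and CDC6 (0.11) were not called, and the B87+DMKG libraries of CDT1 ranged widely, at 2865, 2986, 3989.9 and 4667. CCNE2 (-0.42) was not called without any 1 of B87+DMKG replicates 3 and 4 and Control replicates 3 and 4 (-0.372, -0.279, -0.385 and -0.383), and was at -0.129 without both B87+DMKG replicates 3 and 4.

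Adding B87 to DMKG raised 23 members and lowered 10 relative to DMKG alone, with 60.1% of all rows called (30.8% higher and 29.3% lower). E2F2 had 680.2, 785, 716 and 832 in B87+DMKG, against 202, 214, 212 and 242.6 in DMKG, the largest difference (1.79 ± 0.11, adjusted p = 1.7e-14). The groups stood far apart for E2F2, and CLSPN (1.18) and FAM111B (1.11) followed. PCNA (-0.46) and RFC3 (-0.87) were lower with B87, as was CDT1 (-0.41), which was not called without DMKG replicates 1 and 2 (-0.35, adjusted p = 0.075 in limma) or without B87+DMKG replicates 1 and 2 (-0.132, adjusted p = 0.429 in limma). Without DMKG replicates 3 and 4 the split was 15 higher and 15 lower, and without replicates 1 and 2 it was 22 and 6; without replicates 3 and 4 FAM111B was at 0.75, and E2F2 at 1.85. Without B87+DMKG replicates 1 and 2 the split was 15 and 8, and without B87+DMKG replicates 3 and 4 it was 24 and 13.

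**Figure D4:**
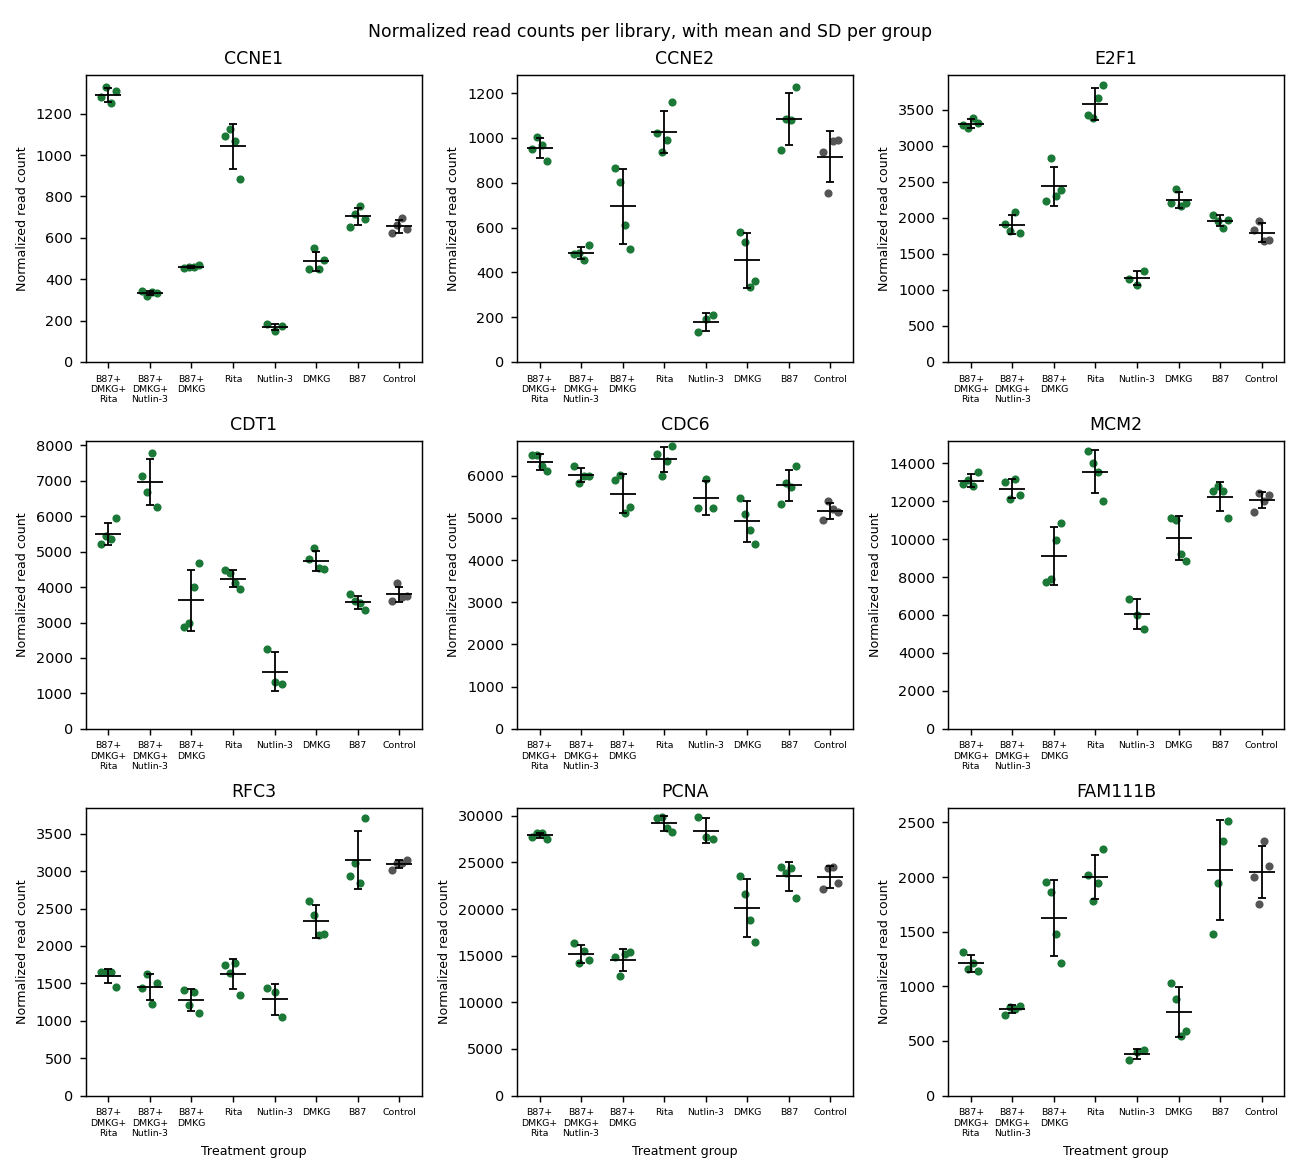
Normalized read counts of 9 genes in each of the 31 libraries (points; Control in grey), with the mean (long bar) and SD (error bar) of each group. CCNE1, CCNE2 and FAM111B are lowest in Nutlin-3, CDT1 is highest in B87+DMKG+Nutlin-3, and RFC3 lies below Control in every group except B87.

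With B87+DMKG in the medium, Nutlin-3 raised some members and lowered others. In B87+DMKG+Nutlin-3 16 members were higher and 18 lower than in Control, with 58.0% of all rows called (28.3% higher and 29.7% lower), and medians of 0.00 for members and 0.02 for all rows; after scaling to 1 shared total 10 were higher and 23 lower, and the median of all rows was -0.13. Against B87+DMKG, 14 were higher and 17 lower, with 58.9% of all rows called (26.5% higher and 32.3% lower). The split was 7 and 20 after scaling to 1 shared total and 10 and 17 by quantile normalization. The median of all rows in this step was -0.05, moving to -0.20 after scaling to 1 shared total and to 0.08 by quantile normalization. The split was 14 and 14 without B87+DMKG replicates 1 and 2, and 11 and 18 without replicates 3 and 4. CDKN1A and MDM2 rose by 3.08 and 1.83 over B87+DMKG, and by 3.39 and 1.15 over Control. Against Nutlin-3 alone, a comparison added after the data were seen, 35 were higher and 6 lower, with 59.7% of all rows called.

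CDT1 showed the turn most. CDT1 had 7145, 6689, 7782 and 6254 in B87+DMKG+Nutlin-3, against 2865, 2986, 3989.9 and 4667 in B87+DMKG, and 2254, 1328 and 1256 in Nutlin-3, against 3604, 4107, 3713 and 3761 in Control. The triple treatment held the highest CDT1 levels of all groups and Nutlin-3 alone the lowest. The effect of Nutlin-3 was 0.97 with B87+DMKG (0.69 without B87+DMKG replicates 1 and 2, and 1.25 without replicates 3 and 4, both called) and -1.29 without, and the difference of these effects was 2.25 ± 0.19, adjusted p = 9.5e-11. DTL moved likewise: it had 8802, 9136, 7916 and 9266 in B87+DMKG+Nutlin-3, against 6158, 6244, 5542 and 5185 in B87+DMKG, and 2291, 2520.0 and 2494 in Nutlin-3, against 5483, 5243, 5484 and 5407 in Control. The effects on DTL were 0.60 with and -1.15 without, a difference of 1.75 ± 0.11, adjusted p = 2.5e-13.

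In all, 12 members were called higher when Nutlin-3 was added to B87+DMKG and lower when it was given alone, and for all 12 the difference itself was called. That is 25.0% of the members, against 8.16% of all 16259 rows, while 0 members and 7.53% of all rows were lower on adding and higher alone. These shares have unlike starting points. In Nutlin-3 alone 41 members and 3359 rows were lower, and 2 members and 3000 rows were higher. Of those lower alone, 12 of the 41 members and 1326 of the 3359 rows were higher on adding. The shares therefore do not show that members turned more often than other rows. The 12 members were CDT1, DTL, MCM2, MCM5, MCM7, TK1, RFC2, CHAF1B, RPA2, GINS4, RRM1 and GMNN. MCM2 had 12998, 12134, 13176 and 12334 in B87+DMKG+Nutlin-3, against 7728, 7884, 9928 and 10838 in B87+DMKG, and 6848, 5981 and 5275 in Nutlin-3, against 11447, 12446, 12022 and 12321 in Control, so that the fold change on adding Nutlin-3 with B87+DMKG was 2.82 times the fold change without, adjusted p = 2.9e-10. MCM5, MCM7, RPA2, GINS4, RRM1 and GMNN changed by 0.20 to 0.37 on adding Nutlin-3 to B87+DMKG; after scaling to 1 shared total MCM5, RPA2, GINS4, RRM1, GMNN and CHAF1B were not called in that step, where GMNN was not called in 5 of the 8 fits that left out 1 library (0.153 to 0.186) and RPA2 not in 3 (0.187 to 0.223). B87+DMKG replicates 1 and 2 lay below replicates 3 and 4 for CDT1, MCM2, MCM5, MCM7 and TK1; without replicates 1 and 2 the step was 0.29 for MCM2 and 0.45 for TK1, both called, and MCM5 (0.08) and RPA2 (0.23) were not called. Without replicates 3 and 4 CHAF1B (0.20), GINS4 (0.28), RRM1 (0.15) and GMNN (0.15) were not called. The difference of the effects was called for all 12 in both fits. Over all 48 members the difference of the effects was called higher for 32 and lower for 3, with 56.9% of all rows called (26.4% higher and 30.6% lower) and medians of 0.57 for members and -0.06 for all rows; CDKN1A and MDM2 had differences of -1.17 and -1.64.

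Some other members were lower in the triple treatment than in B87+DMKG and in Control. RFC4 had 811, 757, 745 and 616 in B87+DMKG+Nutlin-3, against 1811, 1584, 1820.3 and 1722 in B87+DMKG and 2242, 2369.8, 2378 and 2158 in Control, with changes of -1.25 ± 0.08, adjusted p = 4.8e-14 against B87+DMKG and -1.65 against Control. RFC4 was lower there than in any other group, Nutlin-3 included (1725, 1539 and 1565). EXO1 had 17302, 16309, 16844 and 16750.4 in B87+DMKG+Nutlin-3, against 29008, 28677, 26859 and 24101 in B87+DMKG and 45967, 47176, 45398 and 46577 in Control, with changes of -0.69 and -1.46. E2F8 had 329, 339, 347 and 426 in B87+DMKG+Nutlin-3, against 811, 700.0, 786 and 696 in B87+DMKG and 734, 718, 862 and 732 in Control, with changes of -1.06 and -1.08. The E-type cyclins fell less than under Nutlin-3 alone: CCNE1 was at -0.46 against B87+DMKG, against -1.95 for Nutlin-3 against Control, with a difference of 1.49 ± 0.13, adjusted p = 7.2e-11, and CCNE2 had a difference of 1.89 ± 0.24, adjusted p = 8.5e-08. All 6 G1/S regulators were lower than in B87+DMKG, although CCNE2 was not called without B87+DMKG replicate 1 (-0.37, adjusted p = 0.0614 in limma) or without replicates 1 and 2 (-0.187, adjusted p = 0.393 in limma).

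**Figure D5:**
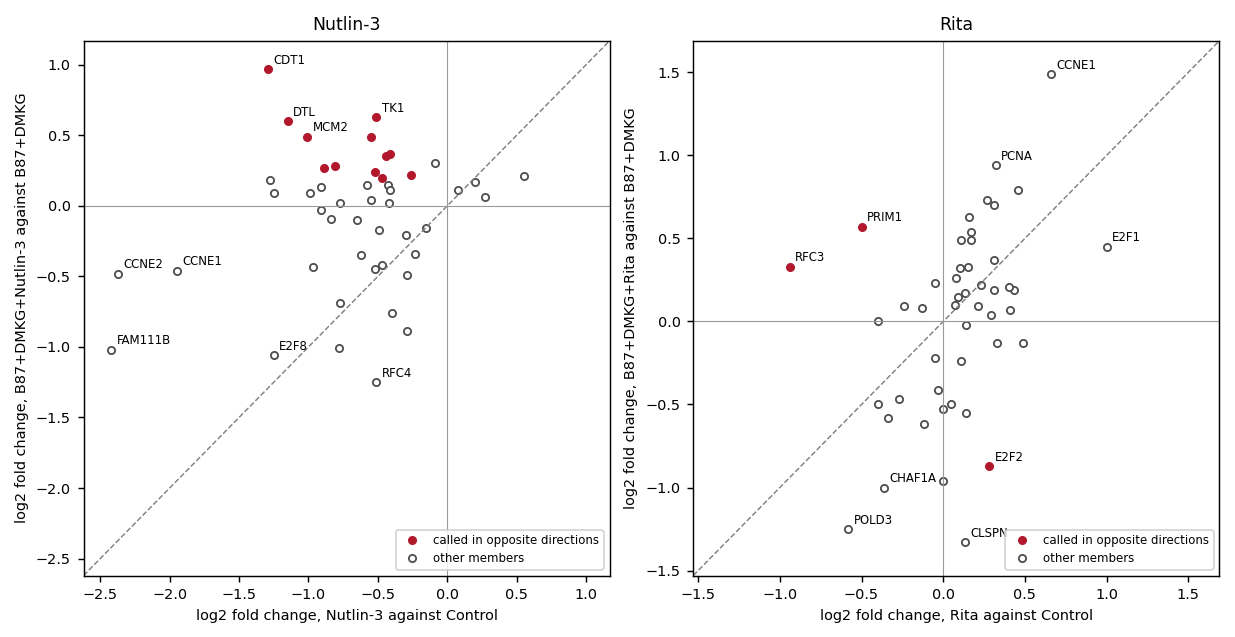
Each point is 1 of the 48 genes; the vertical axis gives the log2 fold change on adding the compound to B87+DMKG and the horizontal axis its change against Control when given alone, and on the dashed line both are equal. For Nutlin-3 most points lie above the line and 12 red points were called in opposite directions; for Rita 3 were.

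B87+DMKG+Rita held 14 members above and 18 below Control, with 60.1% of all rows called (29.4% higher and 30.7% lower), and medians of -0.04 for members and 0.01 for all rows. After scaling to 1 shared total 5 were above and 27 below, the median of all rows moving to -0.25. Against B87+DMKG 19 were higher and 15 lower, with 67.3% of all rows called (33.1% higher and 34.2% lower). That split was 10 and 21 after scaling to 1 shared total and 14 and 16 by quantile normalization. The median of all rows in this step was 0.00, moving to -0.24 after scaling to 1 shared total and to 0.07 by quantile normalization. The split was 21 and 13 without B87+DMKG replicates 1 and 2, and 17 and 15 without replicates 3 and 4. CDKN1A and MDM2 rose by 2.61 and 0.92 over B87+DMKG, and by 2.91 and 0.24 over Control. Against Rita alone, also added after the data were seen, 4 were higher and 16 lower, with 23.4% of all rows called (9.35% higher and 14.1% lower). After scaling to 1 shared total, which shifts the median of all rows from 0.00 to -0.08, 1 was higher and 22 lower. Without Rita replicate 4 the counts were 2 and 11.

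CCNE1 was higher here than in any other group. CCNE1 had 1279, 1330.0, 1252 and 1307 in B87+DMKG+Rita, against 453, 457, 461 and 467 in B87+DMKG and 622, 663, 695 and 644 in Control. No library overlapped, and the changes were 1.49 ± 0.09, adjusted p = 2.5e-15 against B87+DMKG and 0.98 ± 0.09, adjusted p = 3.6e-11 against Control. E2F1 had 3289, 3249, 3391 and 3317 in B87+DMKG+Rita, against 1835, 1964, 1678 and 1696 in Control (0.89 ± 0.07, adjusted p = 1.7e-11), and TK1 had 8027, 8269, 7696 and 8471 in B87+DMKG+Rita, against 5028, 5944, 5234 and 5219.8 in Control (0.60 ± 0.10, adjusted p = 3.6e-06). PCNA had 27722, 28123, 28175 and 27514 in B87+DMKG+Rita, against 14822, 12825, 15138 and 15380.2 in B87+DMKG and 22125, 24407, 24526 and 22778 in Control. PCNA was thus far above B87+DMKG (0.94) and little above Control (0.25, or -0.01 after scaling to 1 shared total and -0.02 by quantile normalization).

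Several genes raised by B87+DMKG were low with Rita added. CLSPN had 2294, 2001.2, 2117 and 1895 in B87+DMKG+Rita, against 6147, 5346, 4500.5 and 4927 in B87+DMKG (-1.33 ± 0.13, adjusted p = 3.5e-10), and POLD3 had 652, 543, 604 and 540.1 in B87+DMKG+Rita, against 1524, 1533, 1275 and 1259 in B87+DMKG (-1.25 ± 0.11, adjusted p = 1.4e-11). CHAF1A had 1390.0, 1333, 1371 and 1335 in B87+DMKG+Rita, against 2762, 2799.8, 2585 and 2692 in B87+DMKG (0.50 times the B87+DMKG level, adjusted p = 4.3e-12). The groups were apart for all 3. Against Control these genes were at -0.28 (not called), -0.90 and -0.70 in the triple treatment and at 1.04, 0.36 and 0.30 in B87+DMKG; the B87+DMKG libraries enter both steps, so these values are given side by side only. POLE was at -0.96 against B87+DMKG and E2F2 at -0.87. GINS1 had 1978, 1945, 2045 and 1969.6 in B87+DMKG+Rita, against 3517, 3614, 4188 and 3718 in Control (-0.92 ± 0.10, adjusted p = 2.5e-09).

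The effect of Rita differed with and without B87+DMKG for 27 members, 12 higher and 15 lower, with 48.6% of all rows called (24.2% higher and 24.4% lower). Of these, 3 were called in opposite directions with and without B87+DMKG, or 6.25% of the members, against 7.70% of all rows, so the share is close to that of the table; the calls held without either pair of B87+DMKG libraries. RFC3 was at 0.33 on adding Rita to B87+DMKG and at -0.94 for Rita alone, a difference of 1.27 ± 0.15, adjusted p = 8.2e-08; PRIM1 was at 0.57 and -0.50, a difference of 1.08 ± 0.17, adjusted p = 7.2e-06; E2F2 was at -0.87 and 0.28, a difference of -1.14 ± 0.15, adjusted p = 4.4e-07. RFC3 had 1649, 1651, 1648 and 1458 in B87+DMKG+Rita, 1417, 1204, 1384 and 1098 in B87+DMKG, 1749, 1641, 1772 and 1338 in Rita and 3014, 3112, 3107 and 3146 in Control. RFC3 was thus low in B87+DMKG and in Rita and no lower in the combination. After scaling to 1 shared total the step from B87+DMKG was 0.09 for RFC3 and not called, and the call of E2F2 in Rita alone was lost after scaling to 1 shared total (0.1, adjusted p = 0.473 in limma) and without Rita replicate 4 (0.137, adjusted p = 0.245 in limma), Rita replicate 1 (0.281), Control replicate 1 (0.267) or Control replicate 2 (0.254).

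Beyond the members, a list of 46 other replication genes was examined, of which 45 have a row of their own and were tested. In Nutlin-3 21 fell and 3 rose, or 53.3% of the 45, with 39.1% of all rows called; the falls were led by HELLS (-1.22), ATAD2 and DNA2 (-1.01 each), and E2F7, a repressor in the E2F family, rose by 1.13. In Rita 17 fell and 12 rose (64.4%, with 52.1% of all rows called), with PRIM2, the large primase subunit, at -1.38, HELLS at -1.30 and the histone chaperone ASF1B at 1.07. DMKG lowered 19 and raised 6 (55.6%, with 41.4% of all rows called), with ORC5 at -1.24 and CHTF18 at 0.79, and B87+DMKG lowered 21 and raised 12 (73.3%, with 61.0% of all rows called), with the clamp loader subunits DSCC1 and CHTF18 at -1.73 and 1.65. In B87+DMKG+Nutlin-3 19 were lower than Control and 13 higher (71.1%, with 58.0% of all rows called), with DSCC1 at -3.43, ATAD2 at -2.31 and TOPBP1 at -2.10; in B87+DMKG+Rita 24 were lower and 11 higher (77.8%, with 60.1% of all rows called), with HELLS at -1.55 and ASF1B at 1.16. The median change of the list was -0.296 in Nutlin-3, -0.12 in Rita, -0.13 in DMKG, -0.163 in B87+DMKG, -0.112 in B87+DMKG+Nutlin-3 and -0.205 in B87+DMKG+Rita, where that of all rows lay between -0.01 and 0.03.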

How the data were processed

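RNA was purified with a column kit and libraries were made with a stranded poly(A) kit, per the labels' protocols. Per the submitters' processing notes the tools were STAR 2.4.0, FastQC, Picard, SAMtools and DESeq2, and the notes name the build mm10, whereas hg19 stands in the table's header and the gene symbols are those of human genes; coordinates are given on hg19. The table deposited by the authors holds a normalized signal per gene, that is, read counts divided by a size factor for each library; all 690132 values above 0 came out as whole reads within 0.1 of 1 read's worth. Whether counting used the strand is not given in the sources used here.

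Log2(value + 1) was fitted in limma 3.58.1 (R 4.3.3) with a trend, by group, in 1 fit of all 31 libraries, over the 16259 rows with a mean of at least 10, and p-values were Benjamini-Hochberg adjusted over these rows with a threshold of 0.05. Alternatives were other pseudocounts and filters, quantile normalization, scaling to 1 shared total, a replicate block, only the groups compared, libraries left out, and edgeR 4.0.16 and DESeq2 1.42.0 on the whole reads. The fit was tested on simulated data. Of 15 comparisons, 4 were added after the data were seen: each triple treatment against its compound alone, and the effect of each compound with minus without B87+DMKG.

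The members and gene lists were chosen with earlier results of these data known. Values per library are given for the 3 largest called rises and falls of a comparison among members with a mean of at least 50 and for CCNE1, CCNE2, CDC6, CDT1, E2F1, PCNA and RRM2; other members are named by role. CDKN1A and MDM2 are read beside them, and other pathway genes are named among the 3 largest called changes in each direction.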

Additional observations from a re-analysis of the deposited data

Results flagged for a closer look

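The effect of a compound differed with and without B87+DMKG, by a limma test of the difference itself over all rows, for 16 of the 27 members that the naming rule picked under Nutlin-3 and for 18 of them under Rita. The naming rule drew in part on the largest called values of these same differences, so both counts were partly fixed by it. Over all rows the difference was called for 56.9% under Nutlin-3 and for 48.6% under Rita. For Nutlin-3 the difference was 2.25 for CDT1, 1.89 for CCNE2, 1.75 for DTL, 1.49 for CCNE1, 1.46 for RFC3, 1.40 for FAM111B, 1.33 for PRIM1, 1.14 for TK1, 0.78 for GINS4, 0.58 for POLD1, 0.52 for POLD3, 0.39 for CDC45 and 0.27 for E2F1, and it was -0.74 for RFC4, -0.59 for POLE and -0.33 for TYMS. Of these CDT1, DTL, TK1 and GINS4 were called in opposite directions with and without B87+DMKG. For Rita it was 1.27 for RFC3, 1.08 for PRIM1, 0.83 for CCNE1, 0.63 for PCNA, 0.47 for CDT1, 0.40 for EXO1, 0.39 for TK1 and 0.38 for RFC4. It was -1.46 for CLSPN, -1.14 for E2F2, -0.96 for POLE, -0.69 for GINS2, -0.68 for POLD3, -0.63 for CHAF1A, -0.62 for ORC6, -0.55 for E2F1, -0.53 for RRM2 and -0.46 for E2F8. Of these RFC3, PRIM1 and E2F2 were called in opposite directions. The differences were not called for POLD1 (Nutlin-3), CDT1 and TK1 (Rita) without B87+DMKG replicates 1 and 2, at 0.294, 0.189 and 0.205, nor for E2F1 (Nutlin-3) without replicates 3 and 4, at 0.22.

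Of 189 sets of 1 member in 1 group, 10 held a library that stood far from the other 3, where chance flags about 1 in 20 groups. In B87+DMKG+Rita these were EXO1 in replicate 3 (26049.7 normalized reads, others 27408.9 to 27597.5), POLD1 in replicate 4 (8104.5, others 7353.3 to 7460.6), RFC3 in replicate 4 (1457.5, others 1648.1 to 1651.0) and RRM2 in replicate 2 (22034.9, others 19385.9 to 19597.7). GINS1 was at 2135.9 in B87+DMKG+Nutlin-3 replicate 3, with the others between 2246.7 and 2268.0, and GINS2 was at 1951.6 in Rita replicate 4, with the others between 1623.9 and 1673.1. In B87, GINS1 was at 3317.9 in replicate 1 (others 3631.1 to 3681.6) and RRM2 at 22749.8 in replicate 4 (others 25459.0 to 25991.7). In Control, CLSPN was at 2359.2 in replicate 2 (others 2571.1 to 2581.5) and E2F8 at 861.7 in replicate 3 (others 718.2 to 733.8).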

How the results depend on the processing

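Of the 15 counts of members called, 14 stayed within 1.5 times their value under every alternative run; the exception was B87+DMKG+Rita against Rita, with 20 called and 13 without Rita replicate 4. Leaving out each library in turn gave 13 to 19 there, 0 to 0 for B87, 22 to 26 for DMKG, 27 to 31 for B87+DMKG, 29 to 36 for B87+DMKG against DMKG, 39 to 43 for Nutlin-3, 24 to 25 for Rita, 40 to 43 for Rita against Nutlin-3, 32 to 34 for B87+DMKG+Nutlin-3 against Control and 28 to 31 against B87+DMKG, 28 to 32 for B87+DMKG+Rita against Control and 33 to 34 against B87+DMKG, 37 to 41 for B87+DMKG+Nutlin-3 against Nutlin-3, and 34 to 36 and 24 to 29 for the difference of the Nutlin-3 and Rita effects. Of 454 member calls, 128 were lost in 1 or more settings: 56 after scaling to 1 shared total, 36 with quantile normalization, 28 with only the groups compared, 22 with no filter, 7 with edgeR, 0 with DESeq2, 67 when 1 library was left out, and, in fits added after the data were seen, 32 without B87+DMKG replicates 1 and 2 and 18 without replicates 3 and 4. With replicate number as a block, 5 calls were lost and 1 gained. Deviations from the group mean correlated between -0.19 and 0.183 for same-numbered libraries of the groups compared. That gives no clear sign of pairing by number but cannot show that the samples were unpaired.

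The sign turned in 18 cases, and the cause was not tested. Against Control, B87+DMKG+Rita gave, after scaling to 1 shared total, TYMS -0.00437, LIG1 -0.0186, PCNA -0.00666, MCM5 -0.242, MCM7 -0.0646 and RFC2 -0.138, and with quantile normalization PCNA -0.0213, MCM5 -0.191 and MCM7 -0.0486. Against B87+DMKG it gave EXO1 -0.239 in both settings and, after scaling to 1 shared total, RRM1 -0.0146, CDC6 -0.0566, TYMS -0.0173, MCM6 -0.148 and RFC2 -0.145. E2F2 in B87+DMKG+Nutlin-3 against Control was at 0.00135 with quantile normalization, and EXO1 in B87+DMKG against DMKG at -0.00769 without DMKG replicates 3 and 4.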
